A study of Mus musculus with 3 samples.

Results

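The common gamma chain receptors were followed here through 7 genes, Il2ra, Il2rb, Il2rg, Il21r, Il7r, Il15ra and Il4ra, of 33696 genes counted. They were chosen by family and not picked by their values in these cells, but earlier results of these data were known at the time. Their identifiers in the files are, in this order, ENSMUSG00000026770, ENSMUSG00000068227, ENSMUSG00000031304, ENSMUSG00000030745, ENSMUSG00000003882, ENSMUSG00000023206 and ENSMUSG00000030748. All 7 were measured in each of 3 single-cell libraries. The cells were Thy1.1+CD8+ pmel T cells, sorted alive from B16F10 tumors on day 18 after tumor injection. Pmel mice carry a transgenic T cell receptor for the melanoma antigen gp100, and B16F10 is a mouse melanoma cell line. In all 3 groups the T cells came from pmel spleens, were preconditioned with gp100 peptide and a cytokine, and were transferred into irradiated C57BL/6 mice bearing B16F10 tumors, in a low dose regimen.

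The sIL-2 group was preconditioned with and then dosed with super IL-2 (sIL-2), an engineered IL-2 with high affinity for IL-2Rβ. The IL-2/21-Trikine group received the Trikine at both steps. This protein joins sIL-2 to an IL-21 variant that binds IL-21Rα without signaling, so that IL-2Rβ, the common gamma chain and IL-21Rα are held together. The sIL-2 + IL-21 group was preconditioned with both cytokines and, per the study's methods, dosed with sIL-2 alone, so the sIL-2 and sIL-2 + IL-21 groups differed in preconditioning and not in the protein injected. These 3 groups are called sIL-2, Trikine and combination below. Each group had 1 library, and the number of mice pooled in it is not given in the sources used here. No test between groups was possible. All intervals below are 95% and cover counting error only, not differences between mice or libraries.

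The common gamma chain, encoded by Il2rg, is a shared signaling subunit. It pairs with a private chain for each cytokine: IL-21Rα for IL-21, IL-7Rα for IL-7, IL-4Rα for IL-4, and IL-2Rβ for both IL-2 and IL-15. IL-2Rα (CD25) adds affinity for IL-2, and IL-15Rα presents IL-15. In CD8+ T cells, IL-2Rα is a known activation marker and IL-7Rα a known marker of memory and resting cells, and the receptors signal through JAK1, JAK3 and STAT proteins.

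After limits on UMIs and mitochondrial share, 7760 sIL-2, 13299 Trikine and 9798 combination cells remained, with medians of 12882.5, 10254 and 14055.5 UMIs per cell. The Trikine library held 1775 cells under 2000 UMIs, against 266 and 364 in the sIL-2 and combination libraries. The 6 T cell identity genes were present in every library, with a summed level between 3417 and 4075 CPM, the UMIs of a gene scaled to a total of 1000000 UMIs per library. Myeloid markers summed to 25.3 to 39.1 CPM and melanoma markers to 2.14 to 8.44 CPM. The 5 erythroid markers set the sIL-2 library apart, at a sum of 68.9 CPM against 0.20 CPM in Trikine and 0.53 CPM in combination cells, with none at 0. This is the library where 6 of the 7 receptor genes were highest, and the part of erythroid RNA in their levels was not tested. The 5 markers of helper and regulatory T cells, cells that can carry Il2ra, summed to 577, 504 and 455 CPM in sIL-2, Trikine and combination. Ctla4, which activated CD8+ T cells also express, made up most of this at 553, 487 and 433 CPM, whereas Cd4 was at 0.22 to 1.21 CPM and Foxp3 at 0.25 to 1.12 CPM. Most of the remainder in each library came from the other markers of this list, Ikzf4 and Il1rl1. Libraries shared 18 to 41 cell barcodes per pair, and no barcode was found in all 3.

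Il2rb, for the chain through which IL-2 and IL-15 signal, was lowest in Trikine cells. It was counted at 497 CPM in sIL-2, 327 CPM in Trikine and 404 CPM in combination cells. The combination lay between the others. On the log2 scale the Trikine ratio was -0.60 (-0.62 to -0.59) over sIL-2 and -0.30 (-0.32 to -0.29) over the combination. Il2ra, for IL-2Rα, had the same order, at 394, 285 and 314 CPM in sIL-2, Trikine and combination. Its log2 ratio in Trikine cells was -0.47 (-0.49 to -0.45) over sIL-2 and -0.14 (-0.16 to -0.12) over the combination.

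Il2rg did not follow the other IL-2 receptor genes. Its level was 394 CPM in sIL-2, 373 CPM in Trikine and 303 CPM in combination cells, so that the combination was lowest. The log2 ratio of Trikine over sIL-2 was -0.08 (-0.10 to -0.06), equal to the median of all genes at -0.08, and it was 0.30 (0.28 to 0.32) over the combination.

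Il21r, for the IL-21 binding chain, was highest in sIL-2 and lowest in the combination, at 157, 130 and 111 CPM in sIL-2, Trikine and combination. The log2 ratio of sIL-2 over the combination was 0.50 (0.47 to 0.53), and its unrounded value lay just under the limit of 0.5. Trikine over sIL-2 was -0.27 (-0.30 to -0.24), but -0.03 when each cell was weighted equally whatever its depth, and -0.31 without the clusters of other cell types and of low depth. Il21r was at 525 CPM in 1 cluster of low-depth cells described below, which made up 6.14% of Trikine cells against 2.85% of sIL-2 and 3.89% of combination cells, and its part in the -0.03 was not tested.

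Il7r, for the IL-7 binding chain, was lowest in sIL-2 cells. Its level was 223 CPM in sIL-2, 269 CPM in Trikine and 267 CPM in combination cells. The log2 ratios were 0.27 (0.25 to 0.29) for Trikine over sIL-2 and -0.26 (-0.28 to -0.24) for sIL-2 over the combination. The ratio of Trikine over the combination was 0.01 (-0.01 to 0.03), an interval that includes 0.

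Il15ra and Il4ra, for the IL-15 presenting chain and the IL-4 binding chain, were sparse. Il15ra was at 22.2, 16.8 and 12.1 CPM in sIL-2, Trikine and combination, and its log2 ratio of sIL-2 over the combination, 0.87 (0.79 to 0.95), was the farthest from 0 among the 21 ratios of these genes. Il4ra was at 32.9, 26.5 and 25.6 CPM in the same order. Its log2 ratio was -0.31 (-0.37 to -0.25) for Trikine over sIL-2 and 0.05 (-0.01 to 0.11) for Trikine over the combination.

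**Figure D1:**
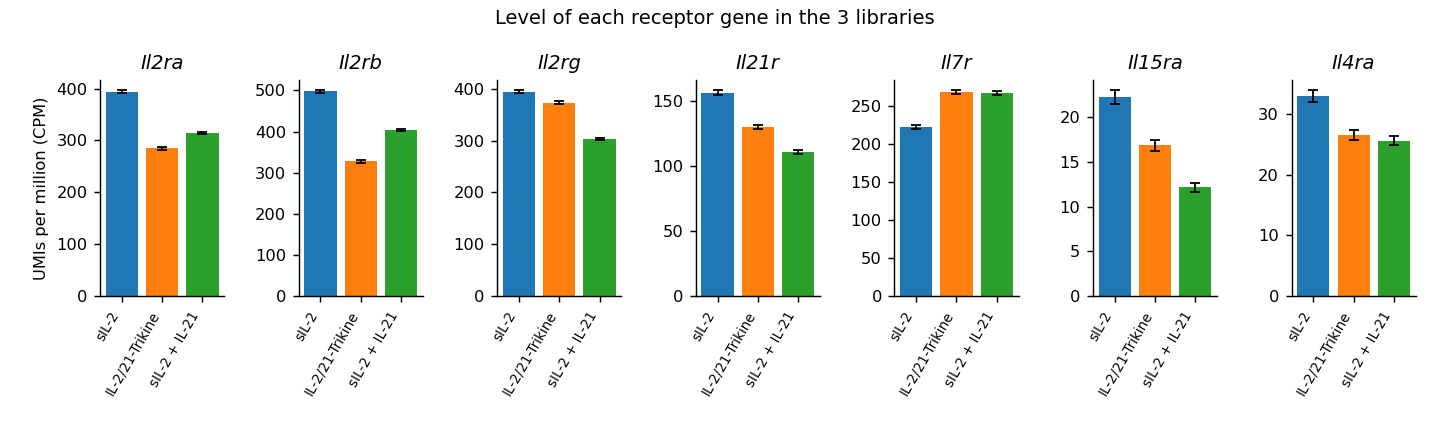
Level of each receptor gene in CPM (vertical axis from 0, a separate scale per gene) in the 3 libraries; bars are 1 library each (combination is sIL-2 + IL-21) and lines are 95% Poisson intervals of the count. Il2ra, Il2rb, Il2rg, Il21r, Il15ra and Il4ra were highest in sIL-2, and Il7r was lowest there at 223 CPM.

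A log2 ratio of at least 0.5 in size was taken as past the limit. For Trikine over sIL-2, 1 of 7 receptor genes was past it, Il2rb on the lower side, where 7.42% of the 11275 genes with at least 1 CPM lay, and 0 were past it on the higher side, where 3.45% lay. For Trikine over the combination, 0 of 7 were past it in either direction, against 4.65% of genes higher and 5.66% lower. For sIL-2 over the combination, Il15ra alone was past it on the higher side, against 11.3% of all genes, and 0 were lower, against 7.29%. The median log2 ratio of the 7 genes was -0.31, 0.05 and 0.36 in these 3 comparisons, beside medians of -0.08, 0.00 and 0.08 over all genes. The comparisons share libraries, so that they are not separate evidence. Among all log2 ratios of Trikine over sIL-2, Il2rb stood at percentile 4.84, Il2ra at percentile 8.61 and Il7r at percentile 89.4.

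For each of the 7 receptor genes the fold between the highest and lowest of 9 clusters was wider than between the 3 libraries. This is partly built in, since clusters are drawn by expression and 9 values can span more than 3. The kept cells fell into 12 clusters, found with all 7 receptor genes left out. Of these, 7 took a name from marker genes. They were cluster 1 (proliferating-like), 2 (stem-like, led by Dapl1 and Tcf7), 3 (ISG-like, rich in interferon-stimulated genes), 5 (terminal cytotoxic-like, led by granzyme genes), 7 and 9 (early activated-like, the first led by Il3 and Il2 and the other by Ccl1 and Penk), and 12 (myeloid-like, 51 cells). The rest stayed unnamed, namely cluster 4 (Styk1, Klre1), cluster 6 (Crabp2, Itm2a), cluster 8 (Egr3, Lilrb4b) and the low-depth clusters 10 and 11, at medians of 1247.5 and 725 UMIs per cell. Cluster 11 was led by the hemoglobin genes Hbb-bs, Hbb-bt, Hba-a1 and Hba-a2, and its top genes also included the melanoma markers Mlana and Dct. It held 41 sIL-2, 659 Trikine and 56 combination cells. The 5 erythroid markers, however, summed to 68.9 CPM in the whole sIL-2 library and only 0.20 CPM in the whole Trikine library. The hemoglobin lead of cluster 11 therefore does not describe its Trikine cells.

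Over the 9 T cell clusters of full depth, Il7r spanned the widest range, from 93.7 CPM in cluster 6 to 623 CPM in the ISG-like cluster 3, a 6.65-fold difference. The top genes of cluster 3 also included Ccl5 and S1pr1, the latter a marker of the stem-like class. Il21r ranged 3.47-fold, from 63.7 CPM in the terminal cytotoxic-like cluster 5 to 221 CPM in cluster 8. The top genes of cluster 8 included the immediate early genes Egr3 and Nr4a1, and also Lilrb4b, Ccl5 and Isg15. Over all 12 clusters the Il21r range was 8.23-fold, wider than that of Il7r, since its level in the low-depth cluster 10 was then counted. Il2ra ranged from 189 CPM in the stem-like cluster 2 to 564 CPM in the early activated-like cluster 7. Il15ra was also lowest in cluster 5 and highest in cluster 7, at 10.5 and 31.9 CPM. Il2rb ranged 2.04-fold, from 258 CPM in cluster 6 to 525 CPM in cluster 3. Il2rg ranged 1.86-fold, the narrowest, from 272 CPM in the proliferating-like cluster 1 to 507 CPM in cluster 8. Il4ra ranged from 18.6 CPM in cluster 5 to 46.8 CPM in cluster 3. Median depth still differed between these 9 clusters, from 6798 UMIs per cell in cluster 3 to 25027 in cluster 1. CPM is a share of all UMIs and need not follow UMIs per cell. Il2rg had 32330 UMIs in 4325 cells of cluster 1 and 12514 in 2211 cells of cluster 8. Il2rb had 44813 in cluster 1 and 15682 in the 4007 cells of cluster 3. Per cell, cluster 1 was thus the higher in both cases. The part of depth in these ranges was not tested.

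**Figure D2:**
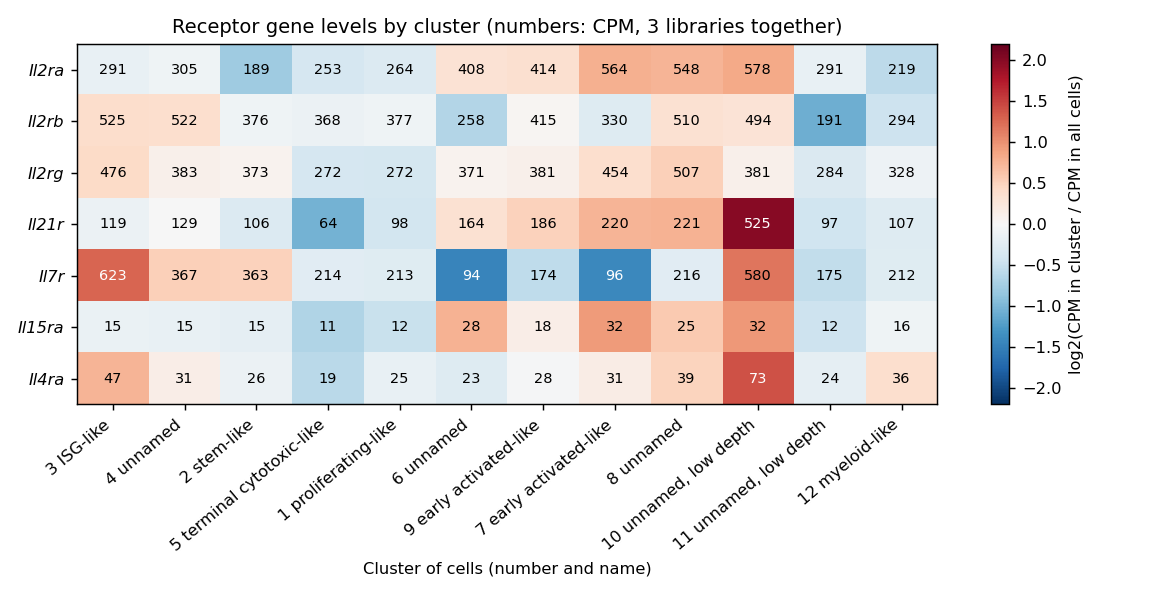
Level of each receptor gene (rows) in each cluster of cells (columns), with the 3 libraries together; numbers are CPM and the color is the log2 ratio of the cluster to all cells. Il7r was at 623 CPM in the ISG-like cluster 3 and near 95 CPM in clusters 6 and 7, where Il2ra and Il15ra were high.

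Some extremes recurred in each library and others did not. Il2ra was lowest in the stem-like cluster 2 in all 3, at 200 CPM in sIL-2, 185 CPM in Trikine and 198 CPM in combination, and Il21r was lowest in cluster 5 in all 3, at 55.0, 52.1 and 68.3 CPM. Il7r was highest in cluster 3 in each, at 502, 768 and 652 CPM. Il2rg was highest in cluster 8 and lowest in cluster 1 in all 3, and Il15ra and Il4ra were lowest in cluster 5. The highest cluster for Il2ra and Il21r was 7 in the sIL-2 library and 8 in the others. The highest cluster for Il2rb, Il15ra and Il4ra and the lowest for Il2rb and Il7r also differed between libraries, and for Il15ra the highest was 6 in sIL-2, 7 in Trikine and 8 in the combination.

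Across 27 units of 1 full-depth cluster in 1 library, Il2ra, Il21r and Il15ra went together, with Pearson r of log2(CPM + 1) of 0.85 for Il2ra and Il21r, 0.80 for Il2ra and Il15ra and 0.79 for Il21r and Il15ra. Il7r had negative r with these genes, at -0.56 with Il2ra, -0.66 with Il15ra and -0.35 with Il21r. Over all 31 units, with low-depth units included, these became -0.26, -0.33 and 0.08, so that the sign for Il21r turned. Il2rb was nearly unrelated to Il21r (r = 0.02) and Il2ra (r = -0.08), and it went with Il7r (r = 0.60). These units share libraries and clusters, so the values are descriptions. Il2ra and Il15ra are neighboring protein-coding genes on chromosome 2, as are Il4ra and Il21r on chromosome 7 (r = 0.53), whereas Il2rb and Il7r lie on chromosome 15 and Il2rg on the X chromosome.

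The genes most alike to each receptor gene over the same 27 units, among 7370 genes with at least 10 CPM, were Bcl2l1 (r = 0.96) for Il2ra, which encodes the survival protein BCL-XL, and Atp2b4 (r = 0.95) for Il2rb, which encodes a plasma membrane calcium pump. They were Nr4a2 (r = 0.97), Orai1 and Rel for Il21r, where Nr4a2 is induced by T cell receptor signaling, Orai1 encodes a calcium channel subunit and Rel an NF-κB subunit. Over all 31 units, with low-depth units included, Bcl2l1 remained most alike to Il2ra (r = 0.95), but Zfp62, Gramd1b and Kdm2b took the place of these genes for Il21r, and Pbxip1 replaced Atp2b4 for Il2rb. Over the 27 full-depth units, Lilrb4a and Gpr171 were the 2 genes most alike to Il2rg (r = 0.94 for each). The gene most alike there was Atp6v1d (r = 0.96) for Il7r, Pvt1 (r = 0.94) for Il15ra and Gpr132 (r = 0.96) for Il4ra. Each value is the highest among 7370 genes, and all 7 receptor genes had a gene with r this high.

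Promoter sequences are shown for the 3 genes that went together over clusters and for Il7r, whose r with them was below 0 over the full-depth units. They come from RefSeq on build GRCm38.p6, hold 250 bases before and 50 after the start site, and are written 5′ to 3′ on the strand of the gene. Entries were found for 6 of 7 receptor genes, all but Il2rb. For the counts the study's methods name GRCm39 and the submitters' notes name mm10, so the positions are taken to apply to the sequences alone. Capitals mark matches, on either strand, to the letters GGGNNNNNCC (an NF-κB core), TGANTCA (AP-1), TTCNNNGAA (GAS, the STAT site) or GAAANNGAAA (ISRE core).
Il2ra promoter, chr2:11642542-11642841, plus strand: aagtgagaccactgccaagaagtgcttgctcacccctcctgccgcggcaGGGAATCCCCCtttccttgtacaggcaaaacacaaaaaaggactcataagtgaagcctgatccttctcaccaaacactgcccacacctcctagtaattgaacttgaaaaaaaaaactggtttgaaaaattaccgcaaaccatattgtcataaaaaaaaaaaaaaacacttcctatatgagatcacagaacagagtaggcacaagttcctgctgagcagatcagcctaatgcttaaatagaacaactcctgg
Il15ra promoter (the downstream of 2 entries), chr2:11705462-11705761, plus strand: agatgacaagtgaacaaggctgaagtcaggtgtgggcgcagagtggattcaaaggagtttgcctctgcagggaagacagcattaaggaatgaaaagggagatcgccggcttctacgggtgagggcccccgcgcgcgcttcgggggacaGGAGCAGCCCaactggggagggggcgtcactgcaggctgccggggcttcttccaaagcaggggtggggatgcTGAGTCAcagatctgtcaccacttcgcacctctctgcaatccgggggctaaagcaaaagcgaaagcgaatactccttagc
Il21r promoter, chr7:125603179-125603478, plus strand: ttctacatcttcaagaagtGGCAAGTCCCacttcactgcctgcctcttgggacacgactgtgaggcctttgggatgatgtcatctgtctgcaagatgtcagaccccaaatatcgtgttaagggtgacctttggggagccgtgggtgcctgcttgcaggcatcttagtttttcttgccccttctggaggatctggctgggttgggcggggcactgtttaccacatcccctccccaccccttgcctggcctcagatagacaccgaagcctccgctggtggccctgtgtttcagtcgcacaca
Il7r promoter, chr15:9529827-9530126, minus strand: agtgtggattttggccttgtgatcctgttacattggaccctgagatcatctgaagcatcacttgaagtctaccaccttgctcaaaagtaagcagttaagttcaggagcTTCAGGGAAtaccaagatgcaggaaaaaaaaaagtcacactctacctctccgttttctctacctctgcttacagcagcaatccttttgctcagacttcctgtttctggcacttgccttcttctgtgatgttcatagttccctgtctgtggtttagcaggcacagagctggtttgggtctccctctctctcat

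The Il2ra window held 2 overlapping matches to the NF-κB core, written as one run of capitals, and the Il21r and Il15ra windows held 1 each. The Il4ra window, not printed, also held 1, and the Il7r and Il2rg windows held 0. This match is common, in 50.8% of 32851 promoters of the same length. The Il15ra window also held TGAGTCA, an AP-1 match found in 7.81% of promoters. The Il7r window held the only GAS match among the 6 genes, TTCAGGGAA, with such a match in 8.30% of promoters. None of the 6 genes had an ISRE core match, present in 3.44% of promoters. The upstream Il15ra entry, not printed, held 0 matches to any of the 4 motifs. A match is a description of letters and not a binding site.

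The lower Il2rb of Trikine cells was found within every cluster compared. In 10 clusters with at least 100 cells in each library, the log2 ratio of Trikine over sIL-2 for Il2rb ran from -0.87 in the early activated-like cluster 7 to -0.38 in the ISG-like cluster 3, with the interval below 0 in 10 of 10. In cluster 7, Il2rb was at 412 CPM in sIL-2, 225 CPM in Trikine and 274 CPM in combination. In the stem-like cluster 2 the values were 499, 346 and 434 CPM, the same order as in the whole libraries. Against the combination the Il2rb ratio was also below 0 in 10 of 10 clusters with its interval, from -0.40 in cluster 5 to -0.10 in cluster 8, and sIL-2 over the combination was above 0 in 10 of 10. With the same cluster weights in every library, and under the 7 other alternatives tried, Il2rb of Trikine over sIL-2 stayed between -0.62 and -0.52.

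Il2ra of Trikine cells was below sIL-2 in 10 of 10 clusters as well, with every interval below 0, but by less. The log2 ratio ran from -0.54 in cluster 7 to -0.11 in the stem-like cluster 2, with a median of -0.23 over clusters. With the same cluster weights in every library the ratio of -0.47 became -0.28. The stem-like cluster 2, lowest in Il2ra, held 23.0% of Trikine cells, 5.57% of sIL-2 cells and 5.81% of combination cells. For sIL-2 over the combination the Il2ra ratio of 0.33 became 0.04 with the same weights. The combination library held 24.2% of its cells in the terminal cytotoxic-like cluster 5, against 5.46% and 4.70% in sIL-2 and Trikine. Clusters 7 and 8, the full-depth clusters highest in Il2ra, held 12.7% and 13.5% of sIL-2 cells, against 5.18% and 3.61% of combination cells. The part of each cluster in these changes of ratio was not tested.

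For Il21r, too, ratios between libraries shrank within clusters. The same cluster weights took sIL-2 over the combination from 0.50 to 0.12 and Trikine over the combination from 0.23 to -0.02. Trikine over sIL-2 was below 0 in 8 of 10 clusters for Il21r, with the interval below 0 in 3, the farthest being -0.55 in cluster 7 and -0.50 in cluster 6. In cluster 7, Il21r was at 258 CPM in sIL-2, 177 CPM in Trikine and 188 CPM in combination. The terminal cytotoxic-like cluster 5 had 52.1 to 68.3 CPM in every library. Il2rg ratios of Trikine over sIL-2 stayed within -0.09 to 0.20 in every cluster and changed sign, to 0.03, with the same weights.

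Il7r of Trikine cells was above sIL-2 in 9 of 10 clusters, with the interval above 0 in 8. The widest gap was in cluster 6, where Il7r was at 52.2 CPM in sIL-2, 107 CPM in Trikine and 106 CPM in combination, a log2 ratio of 1.04 (0.88 to 1.19) for Trikine over sIL-2. Cluster 7 was the exception, at -0.29 (-0.41 to -0.18). In the stem-like cluster 2, Il7r was at 311 CPM in sIL-2, 346 CPM in Trikine and 524 CPM in combination, so that there the combination library was highest. With the same cluster weights, sIL-2 over the combination went from -0.26 to -0.46 for Il7r, and Trikine over the combination from 0.01 to -0.16.

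The Il15ra ratio of sIL-2 over the combination was above 0 in 9 of 10 clusters, with the interval above 0 in 6. It was 0.76 in the proliferating-like cluster 1, at 16.4 CPM in sIL-2 and 9.7 CPM in combination, and -0.09 in cluster 8. The same weights brought it from 0.87 to 0.50. Il15ra and Il4ra of Trikine cells were below sIL-2 in 10 of 10 clusters each, with intervals below 0 in 5 and 4.

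**Figure D3:**
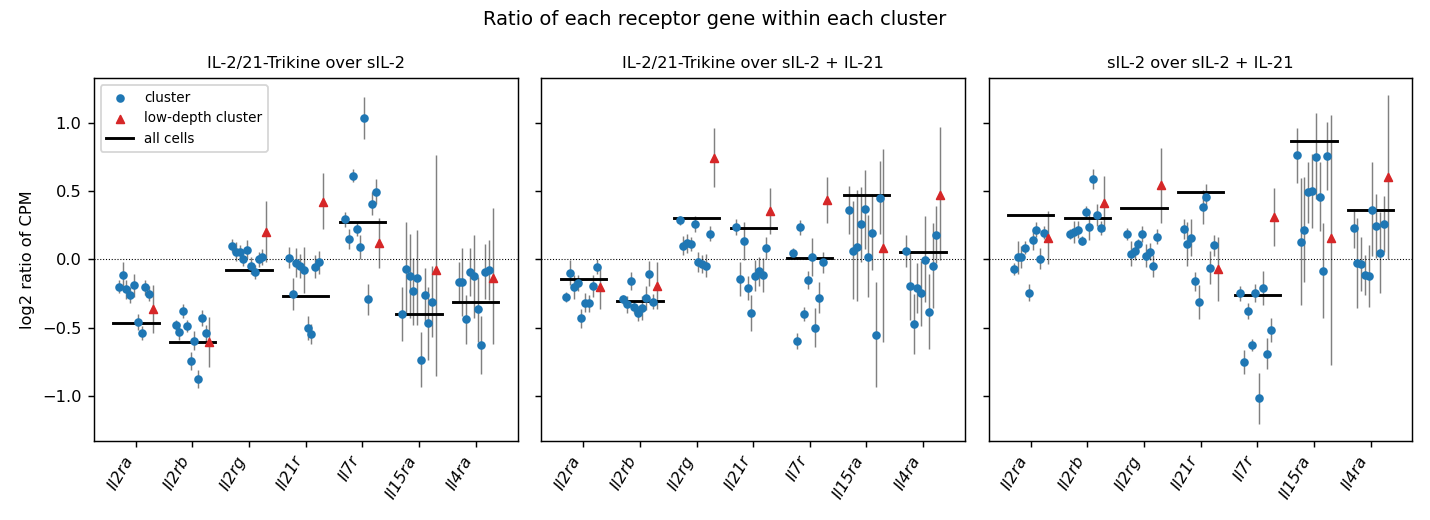
Log2 ratio of CPM (vertical axis) of each receptor gene in the 3 comparisons; points are clusters with at least 100 cells in each library, in order of cluster number, with 95% intervals for counting error, triangles are the low-depth cluster 10, and black lines are all cells. Il2rb points lie below 0 in 10 of 10 clusters for Trikine over sIL-2 and over the combination, and for sIL-2 over the combination the black lines of Il2ra and Il21r lie above all their points.

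The Trikine is built to join IL-2Rβ, the common gamma chain and IL-21Rα on 1 cell, so cells with UMIs of Il2rb, Il2rg and Il21r together were counted. Each cell was thinned to 2000 UMIs, which left 7494, 11524 and 9434 cells of sIL-2, Trikine and combination. At this depth Il2rb was seen in 60.1%, 47.4% and 53.9% of cells and Il2rg in 55.3%, 54.1% and 47.9%. Il21r was seen in 26.1%, 21.6% and 20.5% of cells, and Il2ra in 48.0%, 39.1% and 41.7%. Il7r was seen in 30.4%, 36.5% and 38.8%, Il15ra in 4.44%, 3.33% and 2.52%, and Il4ra in 6.82%, 5.30% and 5.64% of cells. Single shares thus kept sIL-2 as the highest library for each gene but Il7r. A share at 2000 UMIs counts detection and not the share of cells that make a receptor. Without thinning, Il2rb was detected in 95.6%, 82.8% and 93.7% of cells and Il21r in 72.0%, 59.0% and 67.7%.

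All of Il2rb, Il2rg and Il21r were detected in 692 of 7494 sIL-2 cells (9.23%, 8.59% to 9.91%), 699 of 11524 Trikine cells (6.07%, 5.64% to 6.52%) and 570 of 9434 combination cells (6.04%, 5.57% to 6.54%). Unthinned shares were 68.7%, 51.0% and 62.7%. The thinned share of Trikine cells was 0.657 times that of sIL-2 (0.594 to 0.727) and 1.004 times that of the combination (0.902 to 1.12). With the same cluster weights in every library, chosen after seeing the data, the shares were 7.99%, 6.13% and 6.73%, and Trikine over sIL-2 was 0.767. The Trikine share was below sIL-2 in 9 of 10 clusters, with intervals apart in clusters 6 and 7. In cluster 7 the share was 14.1% in sIL-2, 6.77% in Trikine and 5.58% in combination cells, so that sIL-2 lay above both other libraries there.

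The 3 genes were detected together in slightly more cells than the product of their single shares. The observed share was 1.06, 1.09 and 1.14 times the product of single shares in sIL-2, Trikine and combination. Il2rb and Il2rg alone gave 1.01, 1.01 and 1.02. Among sIL-2 cells with Il2rb and Il2rg, 27.5% (25.8% to 29.3%) had Il21r, and among the other sIL-2 cells 25.4% (24.2% to 26.7%) did, intervals that overlap. The same shares were 23.4% and 21.0% in Trikine cells and 23.0% and 19.6% in combination cells, each with intervals apart. At 5000 UMIs the sIL-2 intervals were apart as well, at 48.1% (46.8% to 49.4%) and 44.0% (41.7% to 46.3%).

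Il2ra and Il21r were found together more often than their product. The ratio was 1.18, 1.15 and 1.08 in sIL-2, Trikine and combination. In the sIL-2 library Il2ra was detected in 56.7% of cells with Il21r and in 44.9% of cells without it. Adding Il2ra to Il2rb, Il2rg and Il21r gave 5.34%, 2.94% and 2.87% of cells, 1.28, 1.36 and 1.30 times the product. Il2ra and Il7r were found together less often at 2000 UMIs, at 0.90, 0.92 and 0.95 times the product. Without thinning the direction turned, to 1.01, 1.05 and 1.02 times the product. For Il2rb, Il2rg and Il21r and for Il2ra and Il21r, the unthinned ratios were from 1.05 to 1.19 and from 1.05 to 1.12. Unthinned cells differ in depth, however, and every set of genes counted was then above 1 in each library. The unthinned ratios, that of Il2ra and Il7r included, therefore cannot tell coexpression apart from depth.

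**Figure D4:**
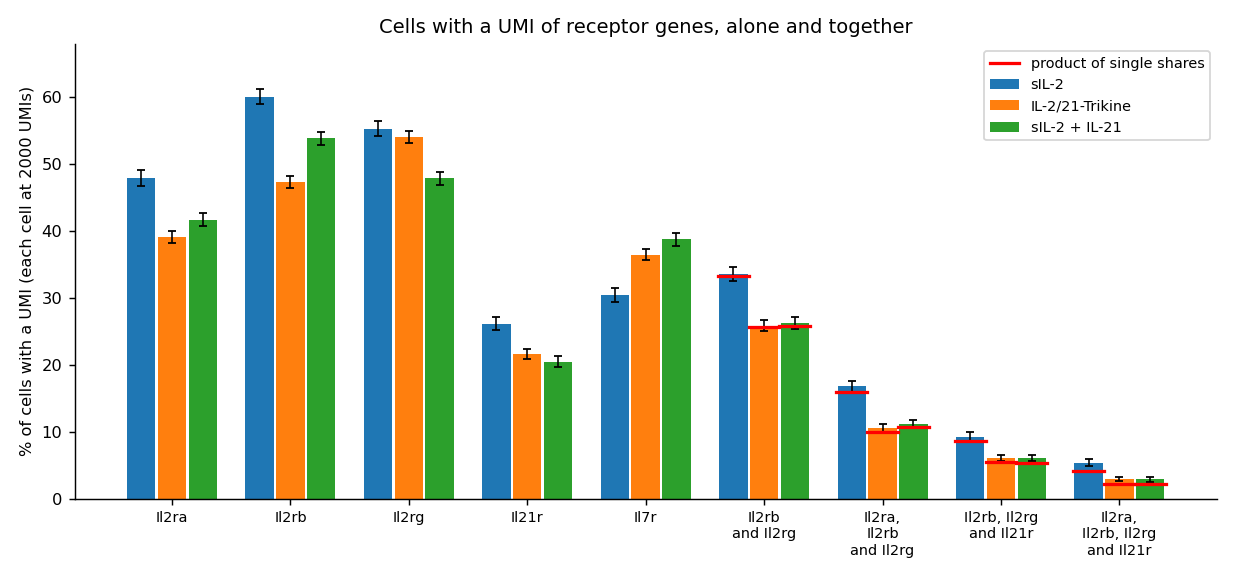
Percent of cells with at least 1 UMI of a receptor gene, or of every gene named, after each cell was thinned to 2000 UMIs; bars are 1 library each (combination is sIL-2 + IL-21), black lines are exact 95% binomial intervals, and red lines are the product of the single-gene shares. Il2rb, Il2rg and Il21r together were detected in 9.23%, 6.07% and 6.04% of sIL-2, Trikine and combination cells.

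By cluster, with the 3 libraries together, cells with Il2rb, Il2rg and Il21r made up 12.7% of cluster 8, 9.75% of cluster 9, 9.67% of cluster 7 and 2.50% of the terminal cytotoxic-like cluster 5. Stem-like cells of cluster 2 were at 5.50%. Free RNA in droplets can give UMIs to cells that do not make a gene. The 45 thinned cells of the myeloid-like cluster had Il2rb in 37.8%, Il2rg in 51.1%, Il21r in 15.6%, Il2ra in 24.4% and Il7r in 33.3%, from a median of 15001 UMIs before thinning. T cell RNA was plain in this cluster, since 62.7% of its 51 cells carried Cd3e, so these shares are no clean background. Among the 13 thinned myeloid-like cells without a UMI of Cd3e, Il2rb and Il21r were seen in 0 cells, which allows a share of up to 23.1%, and Il2rg in 5. The whole-library shares of Il2rg, Il21r, Il7r, Il15ra and Il4ra all lay within the wide intervals of the myeloid-like cluster. So did the Trikine shares of Il2rb and Il2ra, at 47.4% and 39.1%. The sIL-2 and combination shares of Il2rb and Il2ra lay above these intervals. At the same depth the share of each gene differed between T cell clusters, with intervals apart. Il7r was seen in 56.4% of cluster 3 and 13.6% of cluster 7, and Il21r in 34.0% of cluster 7 and 12.1% of cluster 5. Il2rg was seen in 64.1% of cluster 8 and 42.0% of cluster 1, and Il15ra in 5.83% of cluster 7 and 1.95% of cluster 1.

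The cytokines that use these receptors were scarce in the T cells, and 2 of 6 ligand genes reached 1 CPM. Il2 was at 36.7 CPM in sIL-2, 20.5 CPM in Trikine and 23.3 CPM in combination cells, with a log2 ratio of -0.84 (-0.91 to -0.78) for Trikine over sIL-2. It was thus highest in the library where Il2ra and Il2rb were highest. Cluster 7, whose top genes included Il2, made up 12.7% of sIL-2, 6.05% of Trikine and 5.18% of combination cells. The part of this difference in the Il2 levels was not tested. Il4 was at 1.65, 0.79 and 2.46 CPM. Il21 was counted with 3, 2 and 18 UMIs and Il9 with 0 in every library. Of the chains left out of the 7 genes, Crlf2, a receptor chain that pairs with IL-7Rα, was at 56.1, 52.0 and 47.0 CPM, and Il9r was under 0.2 CPM in each library.

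Genes that relay the signal were all measured, 11 of 11 at 1 CPM or more. For Trikine over sIL-2, 1 was lower past the limit, Pik3r1 at 252, 162 and 164 CPM in sIL-2, Trikine and combination, and 0 were higher, with a list median of -0.30, beside 7.42% of all genes lower, 3.45% higher and a median of -0.08 over all genes. For sIL-2 over the combination, Stat5a, Stat5b and Pik3r1 were higher past the limit, where 11.3% of all genes lay, and 0 genes were lower, against 7.29%. Stat5a was at 86.3, 73.2 and 56.6 CPM. Of 12 genes listed as STAT5 targets, 4 were lower in Trikine than in sIL-2 cells past the limit, Socs2, Socs3, Pim1 and Cdkn1a. On the higher side were 0 genes, and the list median was -0.40, against the same shares and median of all genes. Whether the levels of these listed genes follow STAT5 or other signals was not tested. Socs2, a feedback inhibitor of cytokine signaling, was at 46.5, 20.6 and 40.2 CPM, a log2 ratio of -1.17 (-1.23 to -1.11) for Trikine over sIL-2. Against the combination the Trikine library had 3 of 12 lower, Socs2, Osm and Gzmb, and 1 higher, Myc, with 5.66% and 4.65% of all genes lower and higher. In sIL-2 over the combination, 4 were higher, Socs3, Pim1, Myc and Cdkn1a, and 2 lower, Osm and Gzmb, with 11.3% and 7.29% of all genes higher and lower.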

How the data were processed

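Thy1.1+CD8+ pmel T cells were sequenced by 10x 3′ gene expression in 3 libraries. The files deposited by the authors hold whole UMI counts for each cell and gene, from Cell Ranger 9.0.0 per the file headers. The study's methods state a GRCm39 reference and counting of intronic reads, whereas the submitters' processing notes name mm10. The gene set in the files was used as given, and counts without normalization were the start here.

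Cells with 500 to 120000 UMIs and at most 20% mitochondrial UMIs, the study's limits, were kept (30857 of 31026). The study's stated total for these limits is 1 cell lower. UMIs were summed per library and scaled to CPM, with an exact Poisson interval. Log2 ratios carry an exact conditional binomial interval, and the background was every gene whose mean over libraries reached 1 CPM. UMIs of a 3′ assay were not divided by length, so levels are compared within a gene. Total UMIs were 130200802, 166772854 and 168041089 in the sIL-2, Trikine and combination (sIL-2 + IL-21) libraries. Intervals use the 95% level and cover counting error only. Ratios of shares carry a log-scale interval.

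Clusters used 2000 variable genes without the receptor genes, the gene lists and the class markers, 50 principal components, 20 neighbors and Leiden resolution 1 (scanpy 1.11.5, leidenalg 0.10.2), with no batch correction. A cluster was named where at least 3 markers of a class led and that class had the most markers in the top 10 genes. Clusters whose median depth was far below that of each library (a ratio under 0.333) stayed unnamed, as did those that met no class. Names may differ from the study's, and they depended on the resolution. At resolution 0.5 no cluster was named stem-like, and a cluster of 4591 cells was named erythroid-like. At resolution 1.5 stem-like and terminal cytotoxic-like clusters were found, and a cluster of 1333 cells was named melanoma-like. Scrublet called 0, 0 and 1 doublets, so the caller did not work, and the 5% of cells with the highest score were left out as an alternative. Thinning to 2000 UMIs used seed 1. Scripts were tested on simulated data. No columns of the files were unused.

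The 7 genes and all lists were chosen with earlier results of these data known. Named genes were the 7 genes in every library and cluster, up to 4 genes per list with the widest log2 ratio, and the genes with the highest Pearson r to each receptor gene. Cd4, Foxp3, Ctla4, Ikzf4, Il1rl1, Il21, Il9, Il9r and Stat5a were named after their values were seen. Some genes are not reported here. Alternatives are given in the closing section.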

Additional observations from a re-analysis of the deposited data

How the results depend on the processing

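With 1 library per group no replicate could be left out. No paired analysis was possible because each group has a single library and no test was made. The number of the 7 receptor genes past the limit was 1 for Trikine over sIL-2, and it became 6 at a limit of 0.25 and 0 at a limit of 1. For Trikine over the combination it was 0, and 3 at a limit of 0.25. For sIL-2 over the combination it was 1. It became 2 under stricter limits on cells (1000 UMIs or more, mitochondrial share up to 10%), 2 without the clusters of other cell types and of low depth, 0 with the same cluster weights in every library, 7 at a limit of 0.25 and 0 at a limit of 1. The other 25 of 33 recomputed counts did not move.

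The ratio of shares of cells with Il2rb, Il2rg and Il21r was 0.657 for Trikine over sIL-2. It was 0.570 after thinning to 1000 UMIs, 0.750 at 5000, 0.848 at 10000, 0.743 without thinning and 0.767 with the same cluster weights, an alternative chosen after seeing the data. For Trikine over the combination it was 1.004, and 0.814 without thinning. For sIL-2 over the combination it was 1.53, against 1.32 at 5000 UMIs, 1.22 at 10000, 1.10 without thinning and 1.19 with the same cluster weights. Thinning to more UMIs leaves out more cells, at 10000 UMIs 2621 sIL-2, 6477 Trikine and 3210 combination cells. It also brings single shares closer to 100%, although Il21r was then in 66.5%, 60.3% and 57.1% of cells. The part of each in the change of these ratios was not tested. Another random seed moved none of the 3 ratios beyond its interval.

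Of 168 recomputed log2 ratios of single receptor genes, 61 lay outside the counting interval of the reported value. None of those past the limit changed sign. Among the rest, the sign changed with the same cluster weights for Il2rg in Trikine over sIL-2 (0.03) and for Il21r, Il7r and Il4ra in Trikine over the combination (-0.02, -0.16 and -0.12). The last Il7r ratio, 0.01 as reported, also fell below 0 without the proliferating-like clusters (-0.03) and without the clusters of other cell types and of low depth (-0.0031). Depth limits Il15ra most, with 2041 to 2895 UMIs per library. Differences between mice cannot be told apart from differences between groups.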

Other observations

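Other cytokine receptors of T cells were measured beside the common gamma chain family, 15 of 16 at 1 CPM or more. The widest gap was in Il1r2, the decoy receptor for IL-1, at 19.6 CPM in sIL-2, 9.67 CPM in Trikine and 61.5 CPM in the combination. The log2 ratio of Trikine over the combination was -2.67 (-2.75 to -2.59). Il10ra, the IL-10 binding chain, was at 33.9, 19.4 and 15.2 CPM, the same order as Il21r. Its log2 ratio was 1.16 (1.09 to 1.23) for sIL-2 over the combination. Il12rb1, a chain of the IL-12 receptor, was lowest in the Trikine library, at 7.83, 4.65 and 8.07 CPM. Il6st, the signaling chain shared by IL-6 and IL-27, was highest there, at 3.94, 5.18 and 2.32 CPM. For Trikine over sIL-2, 3 of the 15 genes were lower past the limit, against 7.42% of all genes, and 0 were higher, against 3.45%. For Trikine over the combination, 2 were higher, Il6st and Tgfbr1, and 2 lower, Il12rb1 and Il1r2, against 4.65% and 5.66%. For sIL-2 over the combination, 4 were higher and 1, Il1r2, was lower, against 11.3% and 7.29%. The list medians were -0.20, 0.17 and 0.38 in Trikine over sIL-2, Trikine over the combination and sIL-2 over the combination, beside -0.08, 0.00 and 0.08 over all genes.

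The low-depth cluster 10 had a median mitochondrial share of 9.20%. Il21r was at 525 CPM there, Il4ra at 73.5 CPM and Il2rb at 494 CPM, and in the low-depth cluster 11 the same genes were at 96.8, 24.4 and 191 CPM. Il21r in cluster 10 was at 438 CPM in sIL-2, 588 CPM in Trikine and 459 CPM in the combination. The part of depth and mitochondrial share in these levels was not tested.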
